A study of Mus musculus with 48 samples.

Results

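The comparison described here is between Smarce1-MD (MD) and Smarce1-MD(R42A) (R42A) mouse embryonic stem cells 240 min after release from mitotic arrest. Its members are the libraries labelled as 240 min, 8 of 48 in the series, and they measure newly made RNA. MD cells were represented by the clones MD09 and MD30 and R42A cells by the clones A04 and A10, each with 2 libraries. All 4 clones derive from 129S5/SvEvBrd embryonic stem cells grown with serum and LIF, and all carry the tagged Smarce1, so no untagged cell enters the comparison. Mitotic cells were gathered by shake-off after 6 h in 100 ng/ml nocodazole, a microtubule inhibitor, and the drug was removed with 3 washes. Nascent RNA was pulse-labelled with 5-ethynyluridine (EU), a uridine analogue that can be pulled out of total RNA. The same clones were also sampled in asynchronous growth and at 0, 45, 90 and 180 min, and the asynchronous and 180 min libraries serve below as points of comparison.

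SMARCE1 (BAF57) is a DNA-binding subunit of the SWI/SNF (BAF) complexes, which use ATP to move or evict nucleosomes and so open enhancers and promoters. The MD tag is taken from cyclin B1 and is known to direct the destruction of the protein it is fused to around mitosis, and the R42A exchange in the destruction box is known to disable it. In mouse embryonic stem cells these complexes are known for their place in the pluripotency network, with factors such as OCT4, SOX2 and KLF4. Transcription is largely shut down in mitosis and resumes on entry into G1. The series asks how loss of SMARCE1 in mitosis bears on that restart, and 240 min is its latest time.

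Levels are given in CPM (each library's counts brought to the same total, with TMM factors, a scaling that keeps most features equal between libraries), per library or as the mean ± SD of 2 clones. The clone was the replicate (n = 2 per genotype), because nothing in the sources used here says whether the 2 libraries of a clone were separate cultures. The p-values of the genotype comparison measure the spread between clones of a genotype at the same stage, pooled over all stages. That fit treated the same clones at different stages as independent. Differences between stages were tested with a term for each clone, so those p-values measure how far clones vary in their change between stages. A genotype difference cannot be told apart from a difference between the particular clones picked. Fold changes are log2 values, MD minus R42A, ± standard error, from edgeR's quasi-likelihood test with Benjamini-Hochberg adjustment over all 23874 features tested. A feature was called when its adjusted p was at most 0.05. In bulk RNA, fewer cells making a transcript and less transcript per cell cannot be told apart.

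The 4 MD libraries held 1947615 to 2365686 counts in features and the 4 R42A libraries 2049967 to 2623004. The share of reads that fell in no feature was 90.6 to 91.1% in the MD tables and 90.5 to 90.8% in the R42A tables. Of the 10 defining markers of embryonic stem cells, 9 had counts, while Sox2 was at 0 in every library. They summed to 2080 to 2731 counts per MD library and 2953 to 3489 per R42A library. Most came from Esrrb (7121 of 9549 in MD, 9515 of 12527 in R42A), which was not called (log2 -0.43 ± 0.17, adjusted p = 0.115). Of the 9 tested 1 was called, Zfp42 on chromosome 8. Features that overlap a gene on the opposite strand took most counts (21.9% in features nested in such a gene, 39.8% in partly overlapping ones), and partners were unequal: Xist held 16135 counts and Tsix 277, Kcnq1 78330 and its antisense RNA Kcnq1ot1 1472. The sources used here do not give the strand setting of the authors' counting, so a count need not come from the strand of the gene named. That limit holds for every feature and gene list below, and which strand was counted was not tested.

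At 240 min, 2521 of the 23874 features differed between the genotypes (10.6%). Of these 1463 were higher in MD (6.13% of those tested) and 1058 lower (4.43%), 660 and 469 of them by more than 1 log2 unit. The median log2 fold change of all features tested was 0.01. Leaving out any 1 of the 4 clones left 1272 to 1411 features called.

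Much of this difference followed 2 whole chromosomes. On chromosome 11, 492 of 1763 features tested were higher in MD (27.9%) and 16 lower (0.908%), and the median log2 fold change of features at 5 CPM or more was 0.48. On chromosome 8 the picture was the opposite, with 11 of 1230 features higher (0.894%), 219 lower (17.8%) and a median of -0.42. The medians of the 18 other chromosomes compared lay between -0.14 and 0.02. Chromosome 11 held 7.38% of the features tested and 33.6% of those higher in MD, and chromosome 8 held 5.15% of the features tested and 20.7% of those lower.

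**Figure D1:**
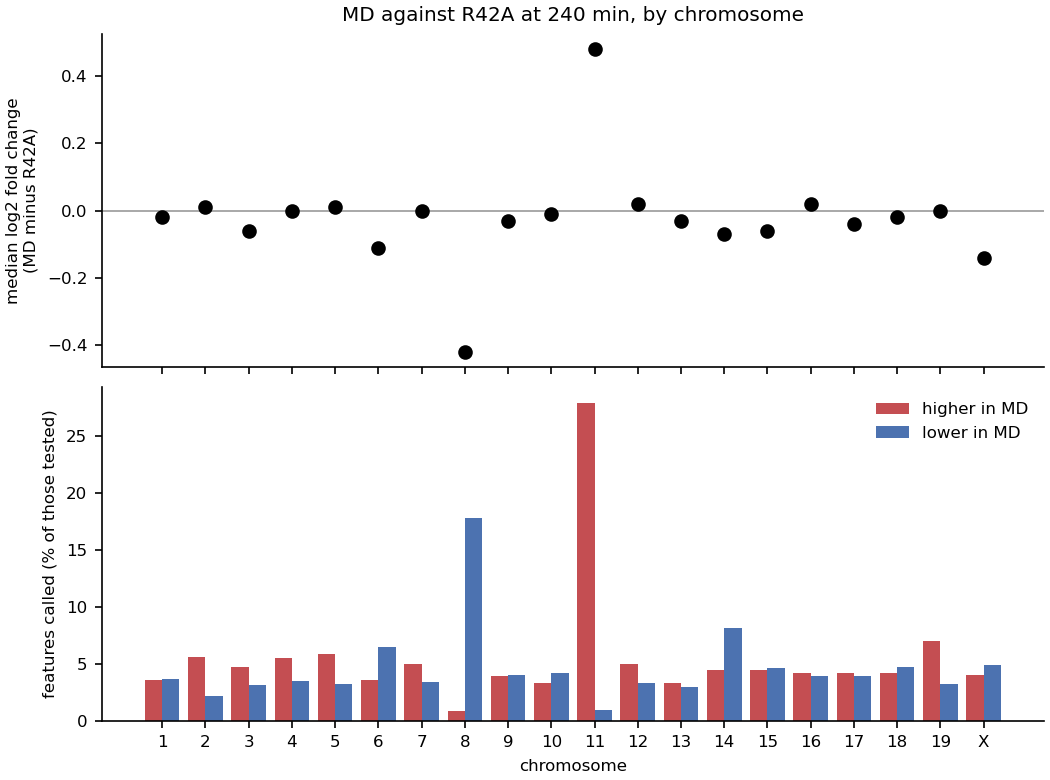
Median log2 fold change (MD minus R42A) of features at 5 CPM or more for each chromosome (upper panel), and the percent of tested features called higher or lower in MD (lower panel), at 240 min. Chromosome 11 lies at 0.48 with 27.9% of its features called higher, and chromosome 8 at -0.42 with 17.8% called lower.

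The shift ran along the full length of both chromosomes. In the 13 windows of 10 Mb on chromosome 11 the median log2 fold change was 0.33 to 0.57, and in the 13 on chromosome 8 it was -0.57 to -0.31. Both clones of each genotype took part. Measured as the median deviation in log2 CPM from the mean of the 4 clones, chromosome 11 stood at 0.23 in MD09 and 0.25 in MD30, against -0.27 in A04 and -0.19 in A10. Chromosome 8 stood at -0.20 in both MD clones, against 0.24 in A04 and 0.17 in A10. The same offset was present at every stage sampled, asynchronous cells included, with median differences of 0.26 to 0.48 on chromosome 11 and -0.52 to -0.39 on chromosome 8. The clone A10 alone was also above the others on chromosomes 6 (0.14), 14 (0.12), 15 (0.13) and X (0.12). The number of copies of each chromosome in these clones was not measured here, and its part in the difference was not tested.

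**Figure D2:**
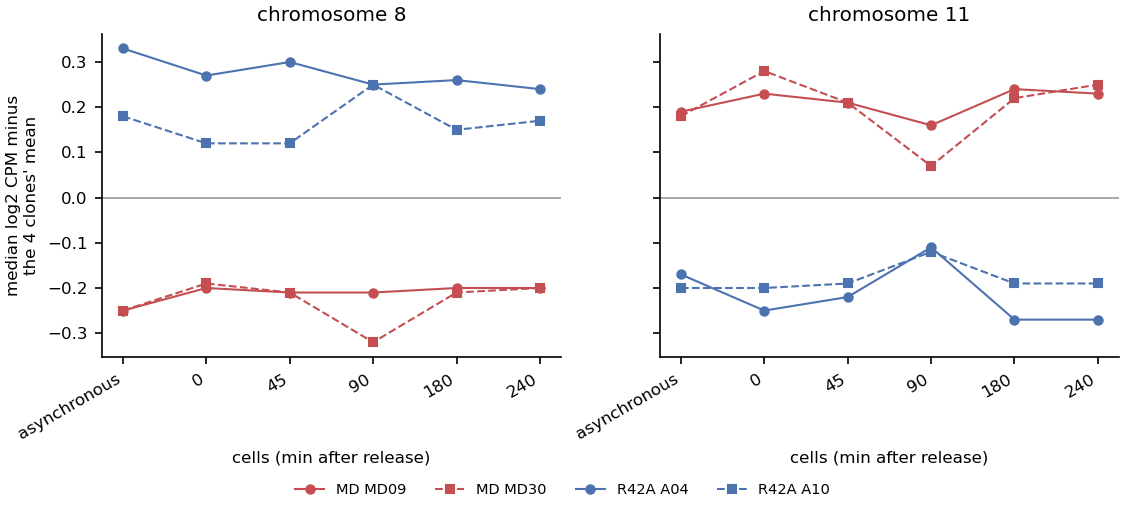
Median deviation of each clone in log2 CPM from the mean of the 4 clones, for features of chromosome 8 (left) and chromosome 11 (right), in asynchronous cells and 0 to 240 min after release. At all 6 stages both MD clones lie below both R42A clones on chromosome 8 and above them on chromosome 11.

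Because of this shift, each chromosome was also scaled by itself, an alternative added after the shift was seen, and calls of named genes that this scaling ended are given as such. With that scaling 1872 features were called (7.84%), 1034 higher (4.33%) and 838 lower (3.51%) in MD. On the 2 chromosomes a change given without it includes the shift of the whole chromosome. Outside chromosomes 8 and 11, the common scaling called 1783 of 20881 features (8.54%), 960 higher (4.6%) and 823 lower (3.94%).

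Smarce1, the tagged gene, lies on chromosome 11 (mm10, 99209047 to 99231017, minus strand). Its levels were 23.4 and 20.2 CPM in the MD09 libraries and 19.4 and 24.3 CPM in the MD30 libraries, against 33.4 and 42 CPM in A04 and 38.0 and 31.2 CPM in A10. All 4 MD libraries were below all 4 R42A libraries, and the log2 fold change was -0.72 ± 0.19 (adjusted p = 0.00957). Scaled within its chromosome, whose other features were mostly higher in MD, it was -1.22 (adjusted p = 2.8e-05). The tag acts on the protein, so the RNA level does not check whether SMARCE1 was degraded. The call was lost when A04, MD09 or MD30 was left out (adjusted p from 0.0667 to 0.085), with log2 values of -0.66 to -0.72, and without the replicate 1 libraries (-0.71, adjusted p = 0.0504).

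Of 31 genes of SWI/SNF subunits, all of them tested, 2 were higher and 1 (Smarce1) was lower, a share close to the 10.6% of all features tested, and the median log2 fold change was 0.10. Arid1b, one of the ARID subunits that define canonical BAF, was higher (120 CPM in MD09 and 148 in MD30, against 91.0 in A04 and 91.4 in A10; 0.55 ± 0.17, adjusted p = 0.0259). Bcl11a, a zinc finger subunit encoded on chromosome 11, stood at 0.57 ± 0.17 (adjusted p = 0.0209) and at 0.08 with its chromosome scaled by itself (adjusted p = 0.865). The ATPase gene Smarca4 averaged 85.6 ± 2.05 CPM in MD cells and 86.6 ± 8.18 CPM in R42A cells (-0.01 ± 0.14, adjusted p = 0.97). Arid1a and the core subunit gene Smarcc1 were not called either, at 0.19 ± 0.15 (adjusted p = 0.487) and 0.10 ± 0.15 (adjusted p = 0.778).

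From the called features 32 were ranked by fold or by p, 16 in each direction, and 31 of them are plotted by library. The largest increases were carried by a mixed group of genes. Lgi1, which encodes a secreted protein of neurons (chromosome 19, 38264536 to 38312214), stood at 71.8 and 75.5 CPM in the MD09 libraries and 80.5 and 83.6 in the MD30 libraries, against 9.06 and 3 CPM in A04 and 6.92 and 8.51 CPM in A10. The groups were far apart, and the difference was 11.8-fold (log2 3.57 ± 0.26, adjusted p = 6.98e-11). Ugt2b34 encodes a UDP-glucuronosyltransferase, an enzyme that couples glucuronic acid to small molecules. Its levels were 12.1, 22.7, 22.4 and 17.2 CPM in the MD libraries, against 1.91, 3.37, 1.98 and 0.473 CPM in the R42A libraries (3.22 ± 0.34, adjusted p = 4.79e-08). Its tested paralogue and neighbour Ugt2b1 moved with it, at 8.31 ± 0.964 CPM in MD cells and 1.85 ± 0.0836 CPM in R42A cells (2.16 ± 0.43, adjusted p = 0.000744).

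Mras, a RAS-family GTPase gene (chromosome 9, 99385420 to 99437381), was among the 12 largest ranked decreases. It stood at 17.5 and 19.4 CPM in MD09 and 12.8 and 15.2 CPM in MD30, against 84.9 and 80.2 CPM in A04 and 83.5 and 84.6 CPM in A10 (-2.33 ± 0.30, adjusted p = 4.16e-05). The promoters of these 4 genes are shown because Ugt2b34 and Ugt2b1 rose together while Lgi1 and Mras differed in opposite directions with wide gaps between the libraries. Each sequence runs 5′ to 3′ on the gene's strand, from 250 bases before to 50 after the start, as given by RefSeq for GRCm38.p6. Capitals mark matches on either strand to the TATA box letters TATAAA, to the GC box GGGCGG, to the AP-1 letters TGANTCA and to CCAAT.
Lgi1, chr19:38264437-38264736, plus strand: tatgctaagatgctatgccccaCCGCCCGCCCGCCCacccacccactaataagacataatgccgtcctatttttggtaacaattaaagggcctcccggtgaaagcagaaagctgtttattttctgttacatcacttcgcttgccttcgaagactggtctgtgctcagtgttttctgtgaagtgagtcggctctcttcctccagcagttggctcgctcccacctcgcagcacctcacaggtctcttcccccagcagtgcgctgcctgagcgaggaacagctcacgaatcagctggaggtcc
Ugt2b34, chr5:86906888-86907187, minus strand: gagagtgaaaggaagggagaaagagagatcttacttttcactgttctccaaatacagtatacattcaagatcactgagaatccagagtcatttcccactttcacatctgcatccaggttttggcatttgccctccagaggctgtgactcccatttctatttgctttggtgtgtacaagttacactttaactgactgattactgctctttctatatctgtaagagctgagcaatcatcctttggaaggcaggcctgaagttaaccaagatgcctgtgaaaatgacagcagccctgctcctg
Ugt2b1, chr5:86926454-86926753, minus strand: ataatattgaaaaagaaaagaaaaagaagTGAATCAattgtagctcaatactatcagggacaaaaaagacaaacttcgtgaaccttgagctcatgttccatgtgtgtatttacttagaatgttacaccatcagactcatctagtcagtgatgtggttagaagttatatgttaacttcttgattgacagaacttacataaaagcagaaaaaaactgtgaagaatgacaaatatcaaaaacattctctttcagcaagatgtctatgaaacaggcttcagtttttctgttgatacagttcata
Mras, chr9:99436663-99436962, minus strand: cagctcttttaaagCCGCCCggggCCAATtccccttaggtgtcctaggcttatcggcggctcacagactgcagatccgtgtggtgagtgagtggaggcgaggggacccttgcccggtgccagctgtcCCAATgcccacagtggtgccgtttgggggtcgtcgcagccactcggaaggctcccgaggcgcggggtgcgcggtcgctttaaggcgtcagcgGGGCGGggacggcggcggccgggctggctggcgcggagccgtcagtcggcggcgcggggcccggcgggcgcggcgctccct
The Ugt2b34 window held none of the 4 motifs, and the Ugt2b1 window held 1 match, to TGANTCA. Lgi1 had 3 overlapping matches to GGGCGG, and Mras had 2 to GGGCGG and 2 to CCAAT. Of all 32851 promoter windows, 13.6% held TATAAA, 35.7% GGGCGG, 7.81% TGANTCA and 37.4% CCAAT. The 2 genes that rose together shared none of these motifs, and they differed in GC content too, 43.3% in Ugt2b34 and 32% in Ugt2b1, against a median of 52.7% over all windows. A match is only a match of letters.

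The other strong increases were spread over many functions. Zfp770, a zinc finger gene, stood at 28.0, 29.3, 52.8 and 46.1 CPM in the MD libraries, against 3.82, 6.37, 9.39 and 6.62 CPM in the R42A libraries (2.59 ± 0.25, adjusted p = 7.33e-09). Muc3, an intestinal mucin gene, averaged 76.4 ± 3.44 CPM in MD cells and 13.9 ± 9 CPM in R42A cells, and Apol6, of the apolipoprotein L family, 109 ± 15.7 CPM in MD cells and 19.6 ± 6.35 CPM in R42A cells. Apol6 partly overlaps the myoglobin gene Mb on the other strand, which was higher as well (1.37 ± 0.27, adjusted p = 0.000737). Cdk3, a cyclin-dependent kinase gene on chromosome 11, was higher by 2.44 ± 0.38 (adjusted p = 2.52e-05), and by 1.95 scaled within its chromosome.

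A few increases rested on low counts. Prr33, nested in Lsp1 on the other strand, was at 34.2, 3.71, 11 and 11.7 CPM in MD, against 1.91, 2.62, 2.96 and 0.473 CPM in R42A (2.92 ± 0.46, adjusted p = 0.000126). Lrrc18, a leucine-rich repeat gene nested in Wdfy4, averaged 9.48 ± 1.63 CPM across MD clones and 1.49 ± 0.423 CPM across R42A clones.

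Mir142b, a microRNA gene known from blood cells, lies opposite the host transcript Mir142hg on chromosome 11 (87756841 to 87756955, minus strand). Its mature product is given because this is the only microRNA among the ranked features, with bases 2 to 8, the seed that pairs with targets, in capitals (RefSeq, GRCm38.p6).
mmu-miR-142b: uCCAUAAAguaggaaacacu
The feature stood at 10.9, 10.7, 6.60 and 7.60 CPM in the MD libraries, against 0, 0.375, 1.98 and 2.84 CPM in the R42A libraries (2.85 ± 0.71, adjusted p = 0.0172). With the chromosome scaled by itself it narrowly missed the threshold (2.36, adjusted p = 0.0526). Mir142hg moved the same way (2.84 ± 0.79, adjusted p = 0.022; 2.35 and 0.0765 with that scaling), and since both share the locus their reads may not be separable. These are reads of nascent RNA across the gene, not amounts of the mature microRNA.

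Ranked by p, after those taken by fold, were Parg, Skap1, Slc29a3 and Sgip1. Parg encodes the glycohydrolase that removes poly(ADP-ribose) from proteins, and stood at 369, 366, 386 and 344 CPM in the MD libraries, against 82.0, 82.1, 81.0 and 80.9 CPM in the R42A libraries (2.19 ± 0.16, adjusted p = 2.62e-11). Its libraries lay close together within each genotype. Slc29a3, a nucleoside transporter gene, averaged 630 ± 44.8 CPM in MD cells and 154 ± 7.64 CPM in R42A cells (2.03 ± 0.17, adjusted p = 4.5e-10). Skap1, an adaptor of T cell receptor signalling encoded on chromosome 11, was higher by 1.91 ± 0.15 (adjusted p = 1.16e-10) and by 1.41 scaled within its chromosome, and Sgip1, an endocytic adaptor, by 2.16 ± 0.19 (adjusted p = 7.92e-10).

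**Figure D3:**
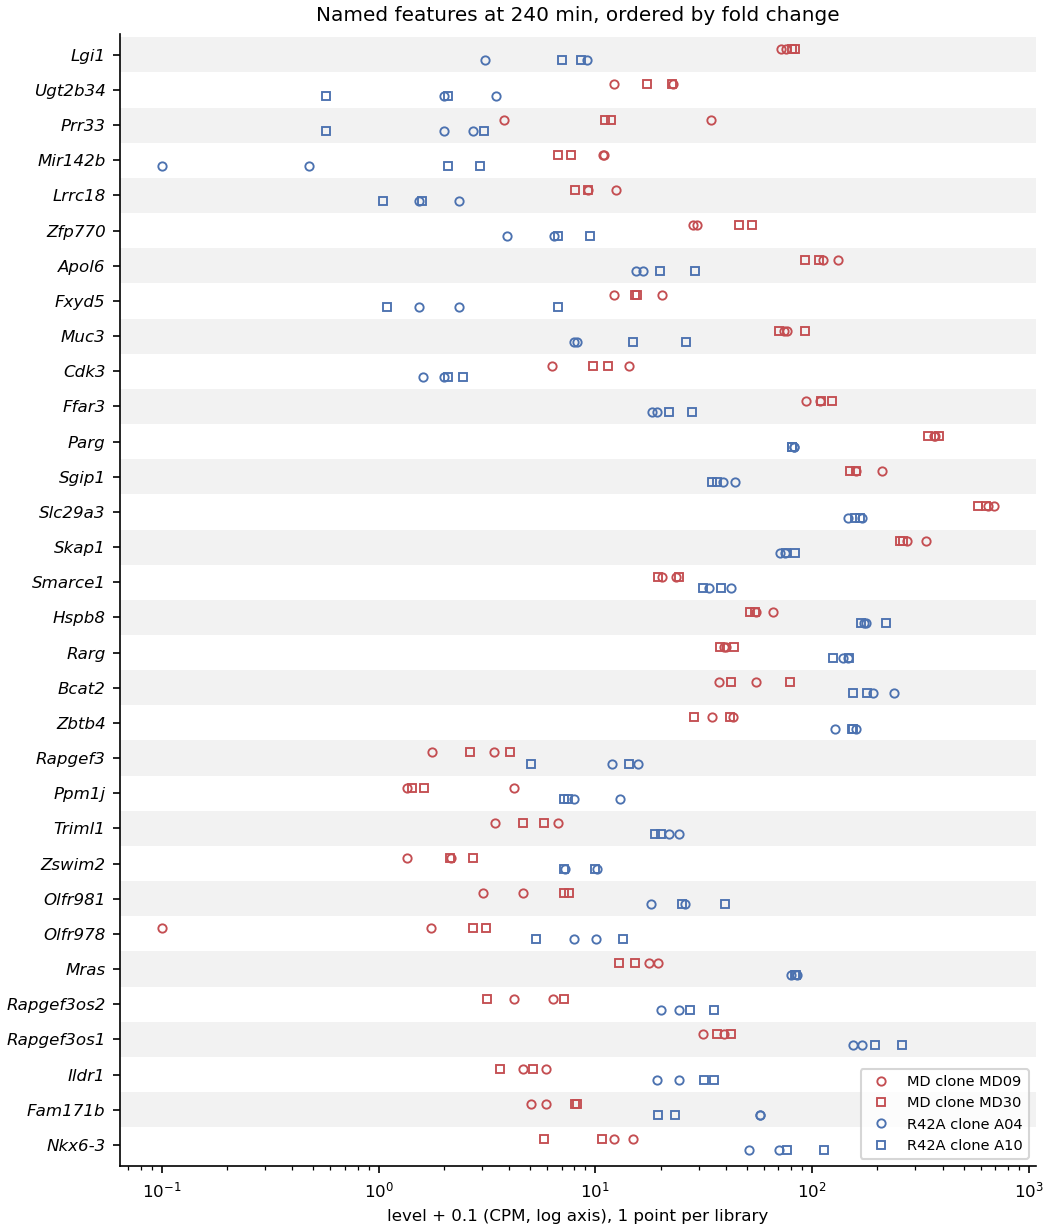
Level in each library at 240 min (CPM plus 0.1, log axis) of 31 ranked features and Smarce1, MD above R42A within each row, with circles and squares for the 2 clones of a genotype. The ranking took only features with both MD clones on one side of both R42A clones, so the separation seen here was largely built in. The widest gap is that of Lgi1, at 71.8 to 83.6 CPM in MD and 3 to 9.06 CPM in R42A.

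The decreases included several genes of signalling and transcription. Rarg, the retinoic acid receptor gamma gene, had 40.1, 39.2, 37.4 and 43.6 CPM in the MD libraries, against 147, 139, 125 and 148 CPM in the R42A libraries (-1.78 ± 0.19, adjusted p = 6.01e-08). Hspb8, a small heat shock protein gene, stood at 55.8 ± 5.27 CPM in MD cells and 178 ± 17.5 CPM in R42A cells (-1.67 ± 0.17, adjusted p = 2.75e-08). Zbtb4, which encodes a zinc finger protein that binds methylated DNA, was lower by 1.99 log2 units although it lies on chromosome 11 (36.5 ± 2.19 CPM in MD, 145 ± 10.3 CPM in R42A; -1.99 ± 0.17, adjusted p = 3.17e-10). Scaled within its chromosome the value was -2.48. Bcat2, the mitochondrial branched-chain aminotransferase gene, had 37.2 to 79.2 CPM in MD libraries and 154 to 239 CPM in R42A libraries (-1.81 ± 0.19, adjusted p = 7.42e-08).

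Rapgef3 encodes EPAC, a cAMP-activated exchange factor for RAP GTPases, and 3 features of its locus on chromosome 15 were lower together. The best counted, the antisense feature Rapgef3os1, had 31.3, 39.2, 36.5 and 42 CPM in MD, against 169, 155, 194 and 261 CPM in R42A (-2.37 ± 0.23, adjusted p = 4.79e-08). Rapgef3os2 and Rapgef3 itself followed, at -2.35 ± 0.31 and -2.02 ± 0.33. Rapgef3 lies on the minus strand and the antisense pair on the plus strand, so reads of the 3 may not be separable. Ildr1, a tight junction protein gene, stood at 4.64 ± 0.670 CPM in MD cells and 26.6 ± 8.94 CPM in R42A cells (-2.50 ± 0.27, adjusted p = 8.19e-08). Ppm1j, a protein phosphatase gene, was at 2.02 ± 0.898 CPM in MD cells and 8.36 ± 1.69 CPM in R42A cells. Fam171b was lower in both MD clones, but its R42A clones were far from each other, with 57.7 and 57.3 CPM in A04 and 19.3 and 23.2 CPM in A10 (-2.54 ± 0.70, adjusted p = 0.0372).

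Neighbours of the ranked features often moved with them. Of the tested features within 100 kb of the higher ones (15 of them, since Cdk3 had no coordinates here), 20 of 75 were called higher too (26.7%, against 6.13% of all features tested) and 0 were called lower. Around the 16 that were lower, 14 of 87 were called lower (16.1%, against 4.43%) and 6 higher, 4 of them around Zbtb4 on chromosome 11. Without chromosomes 8 and 11 the shares were 25% (15 of 60) and 18% (11 of 61), against 4.6% and 3.94% of the features of those chromosomes. Overlapping features share reads, and no test was run on these shares.

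On chromosome 7 the fatty acid receptor genes Ffar3 and Ffar1 stand beside Cd22, a B cell lectin gene, and Mag, its relative in myelin, and all 4 were higher in MD. Ffar3 had 93.5, 109, 110 and 123 CPM in the MD libraries, against 18.1, 19.1, 21.7 and 27.9 CPM in the R42A libraries (2.35 ± 0.19, adjusted p = 2.45e-10). Cd22, the best counted, averaged 727 ± 37.0 CPM in MD cells and 176 ± 49.0 CPM in R42A cells (2.05 ± 0.23, adjusted p = 1.42e-06). Ffar1 and Mag were higher by 2.21 ± 0.22 and 2.29 ± 0.39. These 4 adjacent features span 60.5 kb, and further along the ion transport regulators Fxyd5 (2.49 ± 0.31) and Fxyd7 (1.68 ± 0.36) were higher as well.

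On chromosome 9 a stretch of olfactory receptor genes was lower. Olfr981 stood at 2.92, 4.54, 7.48 and 7.09 CPM in MD libraries, against 25.8, 18.0, 39.5 and 25.1 CPM in R42A libraries (-2.27 ± 0.29, adjusted p = 9.75e-07). Olfr978, Olfr982 and Tmem225 were lower too, at -2.30 ± 0.41, -1.92 ± 0.31 and -1.28 ± 0.18. Tmem225 averaged 23.8 ± 5.30 CPM in MD cells, against 57.8 ± 4.64 CPM in R42A cells. Receptor genes of this family resemble one another, so the sharing of reads between them is uncertain. Nkx6-3, a homeobox gene on chromosome 8, had 12.1, 14.9, 5.72 and 10.6 CPM in MD, against 70.6, 51.0, 76.6 and 113 CPM in R42A (-2.81 ± 0.47, adjusted p = 0.00158), and -2.38 scaled within its chromosome. Its neighbour Ank1, a membrane skeleton gene, was lower (-1.58 ± 0.25, adjusted p = 0.000232), a call that was lost with that scaling (-1.15, adjusted p = 0.068).

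Runs of at least 4 adjacent tested features called the same way, with each chromosome scaled by itself, numbered 9, of which 3 were higher and 6 lower. This search was made after the values were seen. The longest held 9 features with provisional names on chromosome 14 (43277419 to 43608013, log2 -3.22 to -1.65), and the second was the olfactory receptor stretch with 8. A run of 7 on chromosome 3 covered Med12l, a gene of a Mediator subunit, and the receptor genes nested in it on the other strand. Of these P2ry14, a nucleotide sugar receptor gene, averaged 166 ± 3.98 CPM in MD cells and 88.6 ± 19.7 CPM in R42A cells (0.90 ± 0.16, adjusted p = 0.000268). P2ry12, an ADP receptor gene of platelets and microglia, was at 58.0 ± 7.83 CPM in MD cells and 34.0 ± 3.17 CPM in R42A cells. Rarg lay in a run of 4 lower features with Zfp740 and the integrin gene Itgb7 (-1.46 ± 0.18 and -0.78 ± 0.18 with the common scaling).

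Naive pluripotency genes, those active in the ground state of embryonic stem cells, had called members in 1 direction alone. Of 29 tested, 8 were lower in MD (4.43% of all features tested were), 0 were higher, and the median log2 fold change was -0.32 against 0.01 over all features. Scaling each chromosome by itself left 7 lower. Without the libraries numbered replicate 1 there were 5, and without clone A10 there were 8 lower and 1 higher. Fgf4, the main FGF ligand of these cells, had 5.01, 4.54, 2.64 and 4.56 CPM in the MD libraries, against 14.3, 10.5, 16.3 and 9.93 CPM in the R42A libraries (-1.56 ± 0.30, adjusted p = 0.000466). Tbx3, a T-box factor gene, was lower (-1.13 ± 0.22, adjusted p = 0.000717), and Zfp57, whose product guards imprints, was lower as well (-0.94 ± 0.17, adjusted p = 0.000236). Zfp57 had 55.1, 61.5, 53.7 and 55.2 CPM in MD, against 92.5, 102, 113 and 131 CPM in R42A. Zfp42 (Rex1) lies on chromosome 8, and its -0.80 ± 0.17 (adjusted p = 0.00117) shrank to -0.36 with that chromosome scaled by itself (adjusted p = 0.235).

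Genes of the formative and primed states, which follow the naive one, gave 4 higher and 1 lower of 15 tested, with a median of 0.29 (6.13% of all features tested were higher and 4.43% lower). With each chromosome scaled by itself the list gave 3 higher and 2 lower, since Dnmt3b missed the threshold (0.71, adjusted p = 0.0723) and the chromosome 11 gene Etv4 passed it (-0.72, adjusted p = 0.00124). Grhl2, a factor of epithelial enhancers, had 66.4, 51.6, 59.0 and 68.9 CPM in the MD libraries, against 26.2, 20.2, 24.7 and 17.0 CPM in the R42A libraries (1.51 ± 0.17, adjusted p = 1.08e-07). Its groups did not overlap. Dnmt3l, the cofactor of de novo DNA methylation, was higher by 1.03 ± 0.20 (adjusted p = 0.000449) and Lef1, a Wnt effector gene, by 0.84 ± 0.25 (adjusted p = 0.0279). Of 15 DNA methylation genes 2 were higher and 3 lower (median -0.14). The higher pair were Dnmt3l and the methyltransferase gene Dnmt3b, whose call was lost with that scaling, and the lower ones were Tet2, which oxidises methylated cytosine (-0.98 ± 0.21, adjusted p = 0.00154), Zfp57 and Mbd2 (-0.84 ± 0.22, adjusted p = 0.0104).

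**Figure D4:**
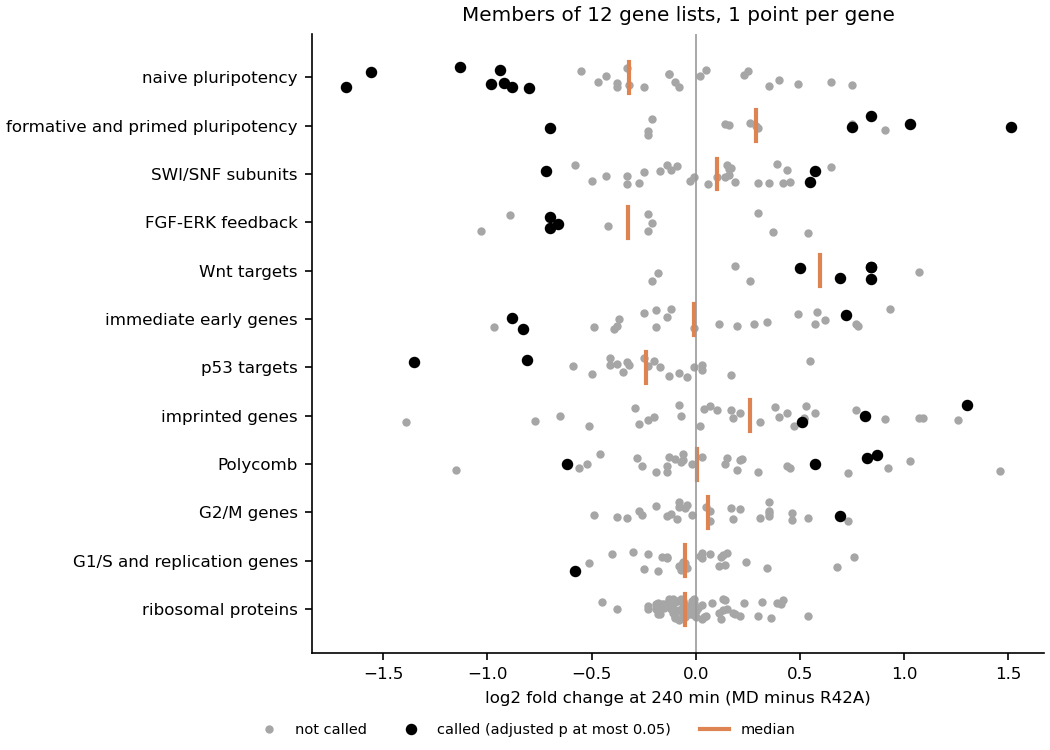
Log2 fold change at 240 min (MD minus R42A) of each tested member of 12 gene lists, with called members in black and the list's median as an orange bar. The naive pluripotency list has 8 called members, all below 0, and the formative and primed list 4 above and 1 below.

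Of 12 feedback genes of the FGF-ERK pathway 3 were lower and 0 higher (median -0.33): Spry4, Spry2 and Phlda1, at -0.66 ± 0.20, -0.70 ± 0.22 and -0.70 ± 0.23 (adjusted p from 0.0299 to 0.046). With each chromosome scaled by itself Spry2 and Phlda1 missed the threshold (adjusted p = 0.105 and 0.0612), while Spry4 and the chromosome 11 genes Spred2 and Etv4 passed it (-0.74, adjusted p = 0.00288, and -0.72, adjusted p = 0.00124). Wnt targets gave 5 higher and 0 lower of 10 (median 0.60), but Znrf3, Tcf7, Rnf43 and Axin2 lie on chromosome 11, and only Lef1 remained called once that chromosome was scaled by itself. Nodal and TGF-beta targets gave 2 higher, Skil among them, and 2 lower (Tgif1, Pmepa1) of 12, and BMP targets 0 of 8. Of all features tested 6.13% were higher in MD and 4.43% lower.

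Tgif1 encodes a repressor of SMAD proteins, and had 59.3, 56.5, 49.7 and 48.1 CPM in the MD libraries, against 91.6, 80.9, 97.3 and 76.1 CPM in the R42A libraries (-0.66 ± 0.16, adjusted p = 0.00625). Immediate early genes, which respond first to growth signals, gave 1 higher and 2 lower of 25 (median -0.01). That share was close to the 10.6% of all features tested that were called. Mafk was higher by 0.72 ± 0.17 (adjusted p = 0.00477). Nr4a1 was lower (-0.83 ± 0.24, adjusted p = 0.0224), and the chromosome 8 gene Ier2 was at -0.88 ± 0.19 (adjusted p = 0.00195), or at -0.44 scaled within its chromosome (adjusted p = 0.233).

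Of all features tested 10.6% were called. G2/M genes gave 1 of 30 higher, Ube2c, the ubiquitin-conjugating enzyme of the anaphase-promoting complex, which partly overlaps Tnnc2 on the other strand. It averaged 25.6 ± 1.15 CPM in MD and 15.8 ± 0.429 CPM in R42A (0.69 ± 0.20, adjusted p = 0.0222). G1/S and replication genes gave 1 of 29 lower, Gins2 of the replicative helicase (-0.58 ± 0.16, adjusted p = 0.0146), on chromosome 8, at -0.15 once that chromosome was scaled by itself. Cytosolic ribosomal protein genes gave 0 of 75, with a median of -0.05 and a range from -0.45 to 0.54. Ribosome biogenesis genes gave 2 higher of 27, Tsr1 and Pes1, both on chromosome 11 and neither called with that chromosome scaled by itself. Cholesterol synthesis genes gave 0 of 18 with a median of -0.42, and mitochondrially encoded ones 0 of 9 with a median of -0.01.

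Stress lists had members called at about the share of all features tested (10.6%). Of 22 p53 targets, 2 were lower and 18 of 22 had a negative log2 fold change (median -0.24). The stress cytokine gene Gdf15 had 20.5, 17.7, 21.1 and 19.8 CPM in MD, against 50.6, 41.2, 64.7 and 49.7 CPM in R42A (-1.35 ± 0.20, adjusted p = 1.42e-05), and -0.91 scaled within chromosome 8 (adjusted p = 0.00845). Bbc3 (PUMA), a pro-apoptotic gene, was lower (-0.81 ± 0.24, adjusted p = 0.0266). The heat shock list gave 1 lower of 12, the small heat shock gene Hspb1 (-0.66 ± 0.19, adjusted p = 0.0192). The unfolded protein list gave 2 lower of 18, Calr and Herpud1, both on chromosome 8 and neither called when that chromosome was scaled by itself, while Slc3a2 then passed (-0.49, adjusted p = 0.0494). Of 17 interferon and antigen presentation genes, 2 were higher, Oas1a (1.07 ± 0.23, adjusted p = 0.00192) and the chromosome 11 gene Irf1. Irf1 was not called with that chromosome scaled by itself (0.90, adjusted p = 0.202).

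Imprinted genes gave 3 higher and 0 lower of 34 (median 0.26), not far from the 6.13% of all features tested that were higher. Grb10, an adaptor that restrains insulin signalling, had 64.3, 80.5, 46.2 and 56.7 CPM in MD, against 17.6, 31.1, 25.7 and 26.0 CPM in R42A (1.3 ± 0.20, adjusted p = 2.7e-05). It lies on chromosome 11 and remained called with that chromosome scaled by itself (0.80, adjusted p = 0.00664). Peg3 was higher by 0.81 ± 0.23 (adjusted p = 0.0177) and the noncoding RNA Airn by 0.51 ± 0.17 (adjusted p = 0.0442). Airn missed the threshold with each chromosome scaled by itself (0.51, adjusted p = 0.0545), which left 2 higher. Polycomb genes gave 3 higher and 1 lower of 32, and 0 higher and 1 lower with each chromosome scaled by itself. The first of these shares is close to the 10.6% of all features tested that were called. Suz12, a core subunit of PRC2, was higher by 0.87 ± 0.19 (adjusted p = 0.00193), but with chromosome 11 scaled by itself it was 0.37 (adjusted p = 0.273). In the HoxC cluster, Hoxc13 had 1.67, 2.89, 3.52 and 5.07 CPM in the MD libraries, against 11.9, 10.9, 13.3 and 10.4 CPM in the R42A libraries (-1.82 ± 0.32, adjusted p = 0.000145). The noncoding RNA Hotair was lower too (-2.32 ± 0.60, adjusted p = 0.00878), but on very low counts. It had 1 or 2 counts in each MD library and 6 or 7 in each R42A library. The other 4 Hox features tested were not called, so 2 of 6 were lower, against 4.43% of all features tested.

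Actin and adhesion genes gave 3 higher and 0 lower of 27, the tropomyosin gene Tpm1 (1.11 ± 0.22, adjusted p = 0.000784), the focal adhesion gene Zyx (1.03 ± 0.24, adjusted p = 0.00407) and the fibronectin receptor gene Itga5 (0.58 ± 0.18, adjusted p = 0.0342). Glycolysis genes gave 2 lower of 18. The shares called in this list and in the actin and adhesion list were close to the 10.6% of all features tested. Pgk1, an enzyme of the payoff phase, had 6.26, 6.60, 2.64 and 1.52 CPM in MD, against 18.6, 14.6, 12.4 and 16.1 CPM in R42A (-1.78 ± 0.45, adjusted p = 0.0155), and Hk1 was lower (-0.54 ± 0.15, adjusted p = 0.0143). Among the 15 snoRNA host genes Snhg16 was higher (0.69 ± 0.17, adjusted p = 0.00702), but it lies on chromosome 11 and was not called with that chromosome scaled by itself (0.19, adjusted p = 0.591).

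Markers of other cell types were counted to see whether differentiated cells moved with the genotype. The 13 mesoderm markers summed to 660 to 760 counts in MD libraries and 431 to 561 in R42A libraries. The 2 called higher, Lhx1 (0.86 ± 0.18, adjusted p = 0.00104) and Wnt3a (0.92 ± 0.22, adjusted p = 0.00416), lie on chromosome 11 and were not called with it scaled by itself. Lhx1 and Wnt3a held 1307 and 698 of the 2891 mesoderm counts in MD, and 712 and 360 of the 2043 in R42A. Of the 8 mesoderm markers tested, 6 had a log2 fold change above 0 and 2 below. Tbx6 (385 counts in MD, 517 in R42A) and Eomes (234 and 254) had fewer counts in MD. The 17 endoderm markers summed to 358 to 397 counts in MD libraries and 243 to 487 in R42A libraries. Of the 12 tested, 1 was called higher, and 0 with each chromosome scaled by itself. The 14 neural ones summed to 237 to 305 in MD and 189 to 242 in R42A, and the 14 fibroblast ones to 132 to 259 in MD and 137 to 216 in R42A. Trophoblast regulators, of which 13 were tested, gave 2 higher (Gata3, Tfap2c) and 2 lower (Tfap2a, Tead4). Of all features tested 6.13% were higher and 4.43% lower. Tfap2c had 18.0, 26.8, 24.6 and 22.3 CPM in MD, against 15.3, 15.7, 12.8 and 15.6 CPM in R42A (0.65 ± 0.19, adjusted p = 0.0264). Among the 18 markers of the two-cell-like state 3 were tested and 0 called. The part of such cells in the results above was not tested.

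The same clones were also compared at other stages. In asynchronous cells 1237 features were higher and 1898 lower in MD (5.18% and 7.95%). Of the 1463 features higher at 240 min, 543 were also higher there (37.1% of the 240 min list and 43.9% of the asynchronous one), and of the 1058 lower, 522 were (49.3% and 27.5%). At 180 min 1564 features were higher (6.55%) and 1780 lower (7.46%) in MD, and 970 higher features were shared with 240 min (66.3% of the 240 min list and 62% of the 180 min one) and 822 lower ones (77.7% and 46.2%). These comparisons use different libraries of the same 4 clones, so whatever sets the clones apart is in all of them. No feature passed the test of the difference between 240 and 180 min (0 of 23874, by edgeR and by DESeq2). An unadjusted p under 0.05 was found for 913. In simulated counts the edgeR test called 18% of 2-fold changes of this kind, so the lack of calls does not show that the differences were equal.

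Against asynchronous cells, the genotype difference had changed for 362 features (1.52%), with MD higher relative to R42A at 240 min than before for 242 of them (1.01%) and lower for 120 (0.503%). The genotype difference had opposite signs at 240 min and in asynchronous cells for 252 of the 362 features. Regardless of sign, the difference was smaller in size at 240 min than in asynchronous cells for 248 of the 362 and larger for 114. The number ranged from 127 to 272 when a clone was left out, and it was 127 without A04, 156 without MD09 and 146 without MD30. Of the 362 features 36 lie on chromosome 11 and 15 on chromosome 8, and 135 were called at 240 min itself. The features named next were taken as those with the smallest p after their values were seen.

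Nid2, which encodes the basement membrane protein nidogen 2, had 296, 390, 363 and 359 CPM in the MD libraries at 240 min, against 81.5, 79.1, 99.3 and 120 CPM in R42A. In asynchronous cells it had averaged 65.8 ± 5.41 CPM in MD and 70.6 ± 4.36 CPM in R42A, so the difference at 240 min exceeded that of growing cells by 2.02 ± 0.23 (adjusted p = 6.14e-07). Scmh1, a Polycomb group gene, showed the same pattern, with 154 ± 5.29 CPM in MD and 40.9 ± 0.441 CPM in R42A at 240 min and 18.2 ± 1.60 CPM in MD and 20.2 ± 5.02 CPM in R42A asynchronous cells (2.06 ± 0.27, adjusted p = 4.81e-06). Vstm5 and Olfm2, genes of a neuronal membrane protein and an olfactomedin, were higher in MD at 240 min (1.13 ± 0.21 and 0.99 ± 0.17) and lower in MD in asynchronous cells (-1.20 and -0.81). Fam83g, on chromosome 11, behaved likewise, by 1.84 ± 0.25.

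In the other direction Hspb8 and its neighbour Srrm4, a splicing regulator of neurons, were lower in MD relative to R42A at 240 min than in asynchronous cells. Hspb8 differed by -1.67 at 240 min and -0.29 in asynchronous cells (difference -1.39, adjusted p = 3.87e-05). Srrm4 averaged 40.8 ± 1.5 CPM in MD and 86.9 ± 2.38 CPM in R42A at 240 min, and 232 ± 66.1 CPM in MD and 160 ± 52.1 CPM in R42A asynchronous cells (-1.64 ± 0.24, adjusted p = 3.87e-05). Nwd1 was higher in MD in asynchronous cells and at 0 and 45 min (2.19, 2.07 and 1.32). In asynchronous cells it had 31.2 ± 4.11 CPM in MD and 6.77 ± 1.34 CPM in R42A, while at 240 min it averaged 18.2 ± 3.12 CPM in MD cells, against 23.9 ± 7.67 CPM in R42A cells (-2.57 ± 0.31, adjusted p = 1.14e-06). Sugp2, Zfp14 and Tshz2 likewise had a smaller genotype difference at 240 min than in asynchronous cells, where they stood at 1.45, 1.62 and 2.72.

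**Figure D5:**
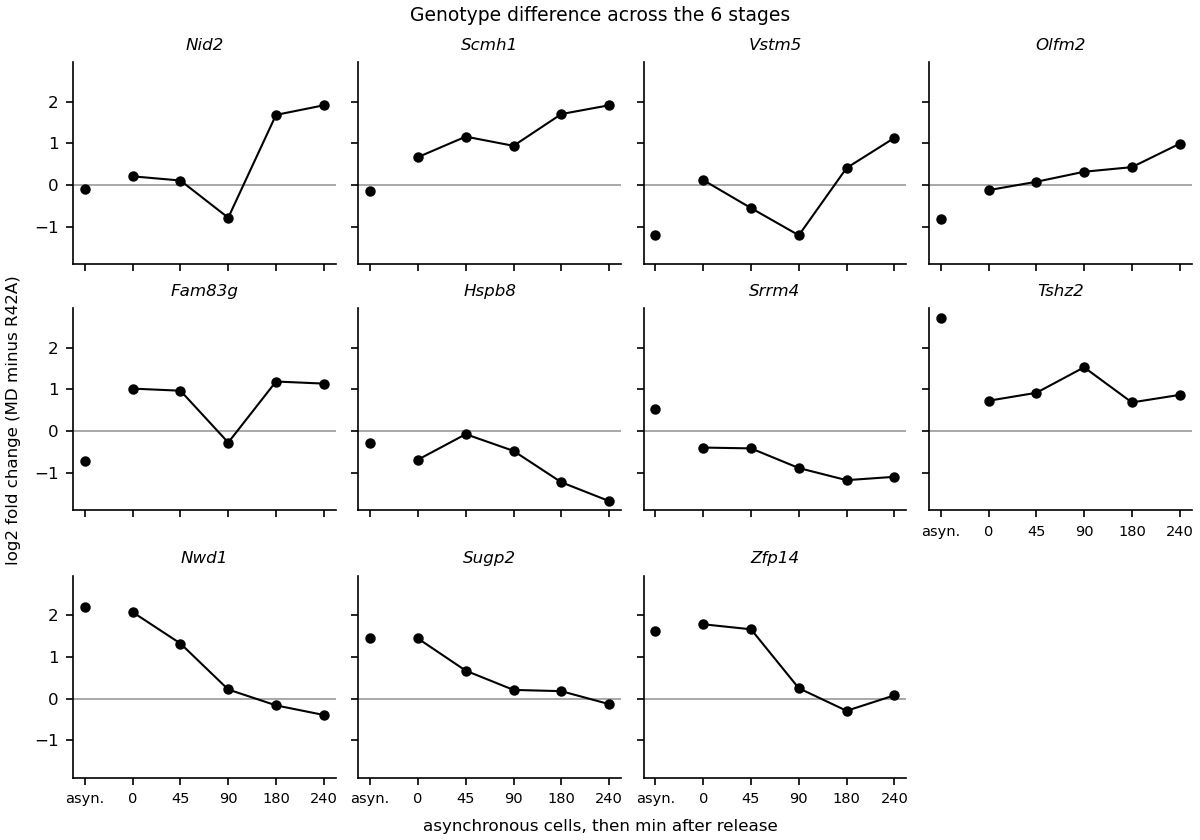
Log2 fold change (MD minus R42A) of 11 features with a strong change between asynchronous cells and 240 min, in asynchronous cells (separate point) and at 0 to 240 min after release. Nid2 lies at -0.10 in asynchronous cells and 1.91 at 240 min, and Nwd1 at 2.19 and -0.39.

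Most ranked features were also called at the other stages compared. Lgi1 stood at 3.37 in asynchronous cells and 3.57 at 240 min, and Mras at -2.46 and -2.33. Of the 16 ranked higher features, 12 were called in asynchronous cells and 16 at 180 min, and of the 16 ranked lower ones 12 and 15. The difference from asynchronous cells was itself called for 3 ranked features, Ildr1 (-1.47, adjusted p = 0.025), Hspb8 and Rarg (-1.04, adjusted p = 0.0132). Among list members it was called for Tgif1 (-0.80, adjusted p = 0.034), Itga5 (1.06, adjusted p = 0.0316) and Grb10 (-1.27, adjusted p = 0.00113), whose difference was larger in asynchronous cells (2.57). Naive pluripotency genes that were lower at 240 min did not pass that test, with Zfp42 closest (-0.76 ± 0.23, adjusted p = 0.0762).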

How the data were processed

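The authors deposited a table of whole-number counts per gene symbol for each library, without normalization. The submitters' processing notes name Trim Galore 0.60, STAR 2.7.1a and RSEM 1.3.0 besides mm10, but not what each did. Rows for ambiguous reads or reads outside features entered neither totals nor tests. Coordinates are mm10, from GENCODE M21, which matched 53186 of 55291 symbols, and 1085 of the 1999 without a match took their chromosome from RefSeq.

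Tests used R 4.3.3 with edgeR 4.0.16. The 2 libraries of a clone and stage were summed to 24 sums, features were kept by filterByExpr (minimum count 10, total 15), and TMM scaling was used. A fit of 12 group means gave the genotype comparison (biological coefficient of variation 0.127), and a fit with clone terms gave the differences between stages (0.111). Simulated counts with seeded changes were used to see how many would be called. At 240 min 56% of 2-fold and 89% of 4-fold changes were. For the difference from asynchronous cells it was 15% and 68%, and for that from 180 min 18% and 81%. The simulation had no clone effect shared between stages, so it does not check the test for clones sampled repeatedly. The 2 libraries of a clone were further apart than counting noise allows, with a chi-square of 1.2 to 2.56 per degree of freedom.

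The comparison, the gene lists and the rules were chosen with earlier results of these data known. Ranked features had an adjusted p of at most 0.05, a mean of at least 5 CPM, both MD clones on one side of both R42A clones and no provisional name. The 12 with the largest fold and the 4 further ones with the smallest p were taken in each direction, then Smarce1, up to 4 called members of a list and neighbours within 100 kb. Of 33 lists, the replication-dependent histones had no member tested. Alternatives were DESeq2 1.42.0 and its size factors, limma-voom (limma 3.58.1), no filter, single libraries with and without a replicate block, the compared stages alone, libraries or clones left out, and features under an other-strand gene left out. Crediting nested features to the other-strand gene and scaling each chromosome by itself were added after the data were seen. Results for 3 features are not reported here.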

Additional observations from a re-analysis of the deposited data

Results flagged for a closer look

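Single libraries stood apart from the other 3 of their genotype in 10 of the 186 groups of 4 examined (ranked features, called list members and library totals). Chance alone flags about 1 in 20 such groups. Ppm1j was at 4.13 CPM in MD09 replicate 2 and at 12.9 CPM in A04 replicate 1, and Hspb8 at 219 CPM in A10 replicate 1. Airn reached 1096 CPM in MD09 replicate 2. Nr4a1 was at 35.9 CPM in A10 replicate 2, Hspb1 at 26.2 CPM in A04 replicate 2, Calr at 36.6 CPM and Tfap2c at 12.8 CPM in A10 replicate 1, and Twist2, a fibroblast marker, at 2.25 CPM in A04 replicate 2. The library total was 2623004 counts in A04 replicate 2, the highest of the 4 R42A libraries.

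The genotype difference at 240 min departed from that in asynchronous cells, by the test of the difference itself, for Ildr1 (log2 -1.47), Hspb8 (-1.39), Rarg (-1.04), Tgif1 (-0.80), Grb10 (-1.27) and Itga5 (1.06). For Ildr1, Hspb8, Rarg and Tgif1 the level was lower in MD at 240 min and the difference was smaller in size in asynchronous cells. For Grb10 the higher level in MD was larger in asynchronous cells, and Itga5 was called higher in MD at 240 min and was at -0.48 in asynchronous cells (adjusted p = 0.123).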

How the results depend on the processing

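The 2521 features called at 240 min became 1725 by DESeq2 and 1434 of 13478 tested when features under an other-strand gene were left out. They were 2151 to 2440 without 1 library, 1272 to 1411 without 1 clone, 1530 without replicate 1 and 1750 without replicate 2, all with fewer counts. The 362 calls of the difference from asynchronous cells became 222 without features under an other-strand gene, 240 with libraries fitted singly and no replicate block, and 127 to 387 without a library, clone or replicate number. The 0 calls between 240 and 180 min became 1 with no filter and 2 with the compared stages alone. Smarce1 kept its sign throughout (-0.62 to -0.80 with a library, clone or number left out). With the replicate number as a replicate block, 2824 features were called at 240 min and 271 against asynchronous cells. The replicate numbers share no stated origin, and deviations of same-numbered libraries correlated at -0.0667 to 0.0549. Of 784 values of the 32 ranked features under 25 alternatives, 752 stayed called and 32 missed the threshold, and none changed sign. Sign changes were seen for 3 features not called at 240 min. Nwd1 became 0.04 and Sugp2 0.31 with each chromosome scaled by itself. With a library or clone left out Sugp2 ranged from -0.28 to 0.04 (0.01 without clone A10) and Zfp14 from -0.22 to 0.34 (-0.03 without A10 replicate 2). The cause was not tested. The number of clones, 2 per genotype, limits the precision.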
